A study of Homo sapiens with 48 samples.

Results

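The estrogen and progesterone receptor axis of luminal breast cancer cells was followed here through 10 genes out of the 19775 with a usable probe set: the receptors ESR1, PGR and PRLR, the transcription factors FOXA1, GATA3, XBP1 and MYB, and the estrogen-induced genes GREB1, TFF1 and TFF3. Members were every probe set that the platform annotation gives to 1 of these symbols alone, which made 32 of 54613 (9 for ESR1, 7 for PRLR, 3 each for GATA3 and GREB1, 2 each for PGR, FOXA1, XBP1 and MYB, and 1 each for TFF1 and TFF3). Affymetrix HG-U133 Plus 2.0 arrays were run on 4 sublines of T47D-YA, a human breast cancer line that lacks IRS adaptor proteins. The sublines carry human IRS-1 (clones #10 and #20) or human IRS-2 (clones #1 and #6), each a single stable clone kept under hygromycin B and G418. After 24 h of starvation in serum-free medium (SFM), cells received IGF-I or, as controls, SFM with fibronectin and no IGF-I, and RNA was taken at 4 h and 24 h. Each of the 16 groups held 3 arrays, and the labels do not say whether these came from separate cultures, so p-values measure the spread between arrays only. T47D-YA cells are known to carry the A form of the progesterone receptor as a transgene in a background that lost its own receptor, and where each PGR probe set lies relative to that transgene was not examined. The starvation medium was free of phenol red, a dye with weak estrogenic activity.

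All values are log2 signals, so a difference of 1 is a 2-fold change, and they lay between 3.13 and 15.36 with array medians of 7.39 to 7.51. Arrays of a group correlated at 0.994 to 0.998 over all probe sets. Luminal markers were bright on every array, with KRT8, KRT18, KRT19, CDH1 and EPCAM above the 99th percentile of probe sets, but markers of other cells were not all dim. Of the basal markers KRT14 stood at percentile 19.3, KRT5 at 67.3 and ACTA2 at 83.0, of the mesenchymal ones SNAI2 at 7.06, ZEB1 at 24.3 and VIM at 75.9, and of those of other cells PTPRC at 27.0, CD3D at 48.4, PECAM1 at 79.5 and COL1A1 at 86.9. The probe sets of the IRS genes did not follow the labels. IRS1 probe set 204686_at had a median of 5.87 in the clones labelled IRS-1 and 8.35 in those labelled IRS-2, without overlap, and IRS2 probe set 209185_s_at a median of 7.29 in the clones labelled IRS-1 and 6.89 in those labelled IRS-2. The other 3 of these 5 probe sets differed by at most 0.35 in SFM. Whether these probe sets lie within the introduced sequences was not tested, so every direction between isoforms below is one between labels.

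Estrogen receptor alpha, the product of ESR1, is a ligand-activated transcription factor. In luminal cells FOXA1 and GATA3 open and hold the chromatin at which it binds, and PGR, GREB1, TFF1, MYB and XBP1 are classical genes it raises. PGR and PRLR, the receptors for progesterone and prolactin, share this luminal program, and the trefoil peptides TFF1 and TFF3 are secreted by such cells.

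RefSeq promoter windows, which run from 250 bases before to 50 bases after a transcription start, were given for 7 of the 10 members in 21 windows of GRCh38.p14. GREB1, TFF1 and TFF3 had none. Of the 3 windows of PGR, 2 are shown because a PGR probe set carried the only calls after IGF-I (the third also holds the arm, overlaps the first and is not printed), and that of MYB because MYB differed between labelled isoforms at all 4 pairs of clones. The palindromic estrogen response element GGTCANNNTGACC, searched on both strands, lay in 0.057% of all 35116 windows and in 0 of the members' 21. Its single arm GGTCA lay in 37.4% of all windows and in 8 of 21 member windows (ESR1, GATA3, PGR and XBP1), of which 2, both of PGR, overlap. The forkhead motif TGTTTAC lay in 3.42% of all windows and in 1 member window, that of MYB, and the GATA motif AGATAA in 10.3% of all windows and 0 of the members'. Capitals mark the arm in PGR, read there as its reverse complement and starting 166 bases before the start site, and the forkhead motif in MYB, 14 bases before it. A match is a description of letters and not of binding.
PGR, chr11:101129028-101129327, minus strand: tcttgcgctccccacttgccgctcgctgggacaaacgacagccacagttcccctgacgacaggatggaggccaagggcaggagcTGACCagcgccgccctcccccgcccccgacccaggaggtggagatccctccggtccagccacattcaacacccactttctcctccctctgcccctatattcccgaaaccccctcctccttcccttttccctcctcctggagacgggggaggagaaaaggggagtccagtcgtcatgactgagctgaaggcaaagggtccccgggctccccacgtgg
PGR, chr11:101129764-101130063, minus strand, no match: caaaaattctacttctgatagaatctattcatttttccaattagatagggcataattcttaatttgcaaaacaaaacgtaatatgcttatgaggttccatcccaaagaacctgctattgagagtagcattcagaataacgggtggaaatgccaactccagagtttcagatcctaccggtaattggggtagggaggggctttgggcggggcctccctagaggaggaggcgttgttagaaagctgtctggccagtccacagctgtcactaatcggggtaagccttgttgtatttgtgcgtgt
MYB, chr6:135181058-135181357, plus strand: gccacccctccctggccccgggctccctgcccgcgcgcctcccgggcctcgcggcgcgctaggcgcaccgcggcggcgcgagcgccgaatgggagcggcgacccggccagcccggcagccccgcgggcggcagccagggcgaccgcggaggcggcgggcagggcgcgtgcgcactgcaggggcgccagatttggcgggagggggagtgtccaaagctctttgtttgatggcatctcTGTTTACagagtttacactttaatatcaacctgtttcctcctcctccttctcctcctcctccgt

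IGF-I left most of these genes within 1.5-fold. Here a call needs both a limma p under 0.05 after Benjamini-Hochberg adjustment across all 54613 probe sets and at least a 1.5-fold change. At 4 h, 0 of the 32 member probe sets were called in any clone, against 0.0623% of all probe sets in clone #10, 0.11% in #20, 0.108% in #1 and 0.223% in #6. At 24 h, 1 of 32 was called in each of clones #10, #20 and #6, always lower and always PGR 228554_at, and 0 in clone #1, where 0.251%, 0.251%, 0.0787% and 0.0476% of all probe sets were called in #10, #20, #6 and #1. With each gene taken by its brightest probe set, 0 of 10 were called in any of the 8 comparisons.

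Smaller shifts were more numerous at 24 h in clones #10, #20 and #6, as over all probe sets, and then ran downward. Without the fold threshold, 2, 3, 1 and 3 of the 10 genes passed the adjusted p at 4 h in clones #10, #20, #1 and #6, where 1.81%, 3.08%, 1.62% and 2.35% of all probe sets passed. At 24 h, 5, 5, 0 and 4 genes passed in the same clones, against 8.01%, 7.2%, 3.15% and 3.84% of all probe sets, and each of these 14 gene responses was lower after IGF-I. The median log2 change of the 10 genes at 24 h was -0.17 in #10, -0.19 in #20, -0.05 in #1 and -0.10 in #6, where the medians over all probe sets were 0.01, -0.00, -0.01 and 0.01. A response of a gene that passed the adjusted p is described below as a rise or fall even where it stayed under 1.5-fold.

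**Figure D1:**
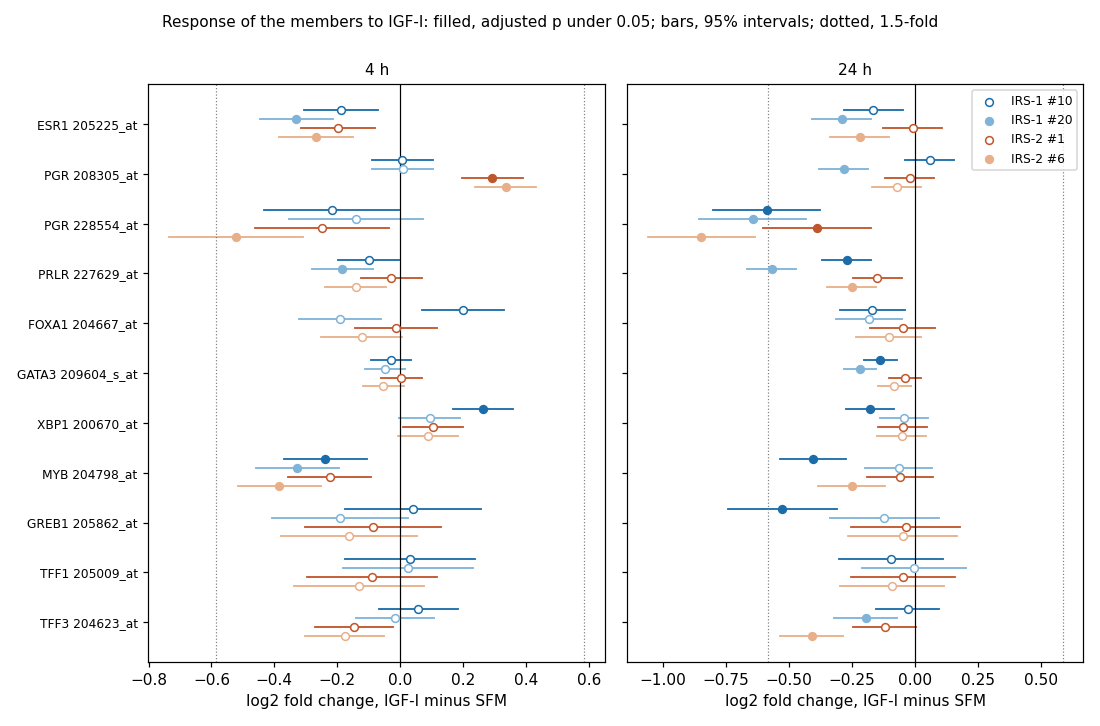
Log2 fold change, IGF-I minus SFM, of the brightest probe set of each member and of PGR 228554_at at 4 h (left) and 24 h (right) in the 4 clones, 3 arrays a group, with 95% intervals as bars. Filled points passed an adjusted p under 0.05 and dotted lines mark 1.5-fold. At 24 h, PGR 228554_at lies beyond the dotted line in clones #10, #20 and #6, and all filled points at 24 h lie left of 0.

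ESR1 (chromosome 6, 151656672 to 152129619 in GRCh38.p14) was read best by probe set 205225_at, with a median of 10.50 over 48 arrays. In clone #20 at 4 h it stood at 10.13, 9.88 and 10.09 with IGF-I, against 10.28, 10.32 and 10.50 in SFM. At 24 h the values in that clone were 9.69, 9.85 and 9.74 with IGF-I and 10.01, 10.03 and 10.11 in SFM. IGF-I arrays lay below all SFM arrays at both times. The falls were 0.33 ± 0.0575 on the log2 scale at 4 h (SE, limma adjusted p = 0.000239) and 0.29 ± 0.0575 at 24 h (adjusted p = 0.000393). ESR1 also fell in clone #6, by 0.27 at 4 h (adjusted p = 0.00289) and 0.22 at 24 h (adjusted p = 0.0174). In clone #10 it changed by -0.19 and -0.17 (adjusted p = 0.0793 and 0.0646), and in clone #1 by -0.20 at 4 h (adjusted p = 0.067) and -0.01 at 24 h (adjusted p = 0.974). Without replicate C the #20 fall at 4 h had an adjusted p of 0.0966 and that at 24 h one of 0.0501, and without replicate B or C the #6 fall at 4 h had 0.15 or 0.158. The #6 fall at 24 h missed the adjusted p without any 1 of the 3 letters, at 0.184, 0.156 and 0.0816 without A, B and C. The 8 other ESR1 probe sets were dimmer, with medians from 4.38 to 8.64, and 1 of them (211627_x_at) was the only member probe set that stayed under a log2 of 5 on every array. Averaged over its 9 probe sets, ESR1 changed in #20 by -0.08 at 4 h and -0.07 at 24 h (limma adjusted p = 0.266 and 0.379). In #6 that average changed by -0.03 at both times (limma adjusted p = 0.871 and 0.766).

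PGR (chromosome 11, 101029624 to 101129813) gave 2 different pictures on its 2 probe sets. 208305_at was bright, at the 98.6th percentile, and spanned only 0.69 over all 48 arrays, whereas 228554_at spanned 4.14, and their 16 group means correlated at -0.51 (arrays share scaling, so this is a description). For 228554_at at 24 h, clone #10 had 7.74, 7.86 and 8.13 with IGF-I, against 8.56, 8.52 and 8.41 in SFM. Clone #20 had 6.90, 7.42 and 6.73 with IGF-I, against 7.55, 7.81 and 7.63 in SFM. Every IGF-I array lay below every SFM array of its clone. Clone #6 had 9.46, 9.37 and 9.59 with IGF-I, against 10.29, 10.37 and 10.31 in SFM, and clone #1 had 8.76, 8.76 and 8.74 with IGF-I, against 9.15, 9.15 and 9.13 in SFM. The falls were 0.59 in #10 (adjusted p = 7.6e-05), 0.65 in #20 (adjusted p = 1.94e-05), 0.85 in #6 (adjusted p = 2.79e-07) and, under 1.5-fold, 0.39 in #1 (adjusted p = 0.0247), each with an SE of 0.105. The #10 call lay close to the fold threshold and was lost without replicate A (fall of 0.47) or B (0.55), the #20 call without replicate C (0.52), and the #1 fall missed the adjusted p without any 1 of the 3 letters (0.175, 0.073 and 0.115 without A, B and C). At 4 h the same probe set fell by 0.52 in #6 (adjusted p = 0.00117) and changed by -0.22, -0.14 and -0.25 in #10, #20 and #1 (adjusted p = 0.366, 0.564 and 0.331).

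The bright PGR probe set 208305_at moved the other way at 4 h in the clones labelled IRS-2. Clone #1 had 12.47, 12.41 and 12.55 with IGF-I, against 12.18, 12.18 and 12.19 in SFM. Clone #6 had 12.68, 12.49 and 12.55 with IGF-I, against 12.18, 12.30 and 12.23 in SFM. The groups did not overlap in either clone, and the rises were 0.29 (adjusted p = 6.67e-05) and 0.34 (adjusted p = 2.53e-06), each with an SE of 0.048. In the clones labelled IRS-1 the changes at 4 h were 0.01 in both (adjusted p = 0.979 in #10 and 0.963 in #20), and the difference in response, labelled IRS-1 minus labelled IRS-2, was -0.31 (95% interval -0.40 to -0.21, adjusted p = 0.000126). On 228554_at that difference was 0.21 (adjusted p = 0.781), and on the mean of both probe sets -0.05 (adjusted p = 0.946). At 24 h this probe set fell by 0.28 in #20 (adjusted p = 3.58e-05), with 12.46, 12.53 and 12.49 after IGF-I and 12.74, 12.76 and 12.83 in SFM, and changed by at most 0.07 in size in the other clones. Its SFM level in clone #6 was 0.36 higher at 24 h than at 4 h (adjusted p = 2.74e-07).

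**Figure D2:**
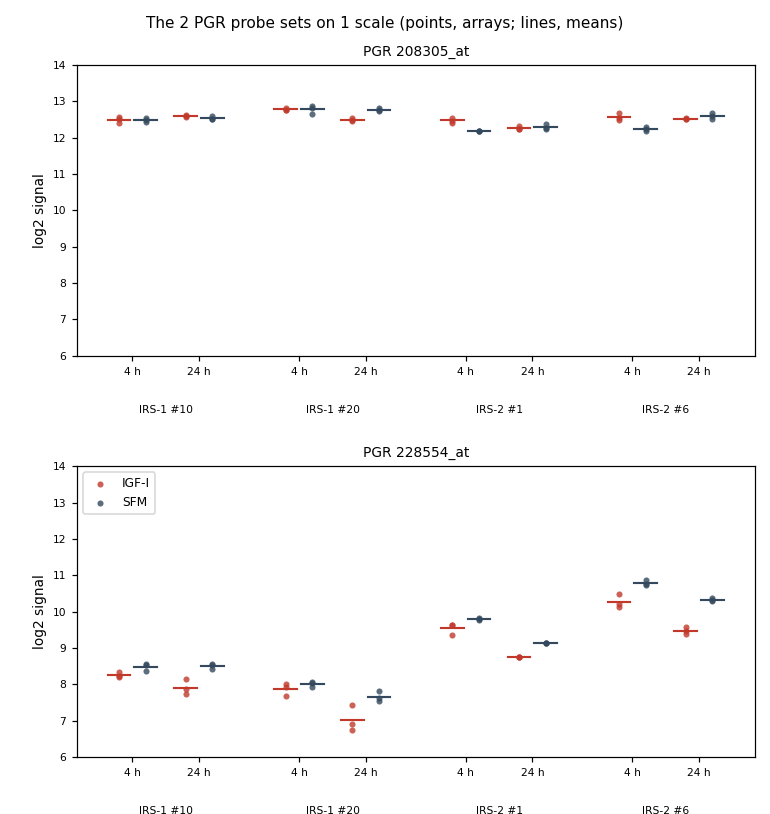
Log2 signal of PGR 208305_at (top) and PGR 228554_at (bottom) on the same scale, by clone and time, with IGF-I (red, left) and SFM (dark, right). Points are arrays and lines are means of 3. 208305_at stays between 12.18 and 12.87 on every array, while 228554_at runs from 6.73 to 10.88, is higher in clones #1 and #6 than in #10 and #20 in SFM, and is lower with IGF-I at 24 h in each clone.

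PRLR (chromosome 5, 35048756 to 35230487) fell in clone #20 at both times, by sizes that depended on the probe set. At 24 h its brightest probe set 227629_at had 11.57, 11.77 and 11.84 there with IGF-I, against 12.28, 12.29 and 12.32 in SFM. The groups were apart by more than the range within either, and the fall of 0.57 ± 0.048 (SE, adjusted p = 1.19e-12) was a 1.48-fold change, just under the threshold. Without replicate B the fall was 0.59 and without replicate C 0.62, both past 1.5-fold, and under quantile normalization it was 0.60. At 4 h 227629_at fell by 0.18 in #20 (adjusted p = 0.0203, and 0.106 and 0.277 without replicates B and C). PRLR also fell at 24 h in #10 by 0.27 (adjusted p = 6.25e-05) and in #6 by 0.25 (adjusted p = 0.000573, and 0.0506 without replicate B), and in #1 it changed by -0.15 (adjusted p = 0.0739). The response at 24 h was lower in the clones labelled IRS-1 than in those labelled IRS-2 by 0.22 (95% interval of the difference -0.32 to -0.12, adjusted p = 0.0118). That difference missed the adjusted p without replicate A (0.583) or C (0.0822), with median centring (0.0751) and with variances without trend (0.0685). In clone #20 at 24 h the second brightest probe set, 231981_at, fell by 0.32 (adjusted p = 3.88e-07), while the other 5 changed by -0.11 to -0.17 and did not pass. At 4 h those 5 changed by -0.17 to -0.33, each more than at 24 h, and 3 of them passed. Averaged over its 7 probe sets PRLR fell in #20 by 0.25 at 4 h (adjusted p = 0.00233) and 0.23 at 24 h (adjusted p = 0.00207), and its average response at 24 h differed between labels by -0.13 (adjusted p = 0.306).

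Among the transcription factors MYB, a proto-oncogene whose transcription estrogen raises in luminal cells, responded in the largest number of comparisons. At 4 h probe set 204798_at had 8.92, 8.73 and 8.78 in clone #6 with IGF-I, against 9.16, 9.21 and 9.21 in SFM. At 24 h it had 8.38, 8.53 and 8.35 in clone #10 with IGF-I, against 8.78, 8.78 and 8.90 in SFM. The arrays did not overlap in either comparison, and the falls were 0.38 (adjusted p = 7.1e-05) and 0.41 (adjusted p = 1.22e-05). MYB further fell at 4 h by 0.33 in #20 (adjusted p = 0.00138) and 0.24 in #10 (adjusted p = 0.041), and at 24 h by 0.25 in #6 (adjusted p = 0.0149), and in clone #1 it changed by -0.22 at 4 h (adjusted p = 0.0627) and -0.06 at 24 h (adjusted p = 0.793). The fall in #10 at 4 h missed the adjusted p without any 1 of the 3 letters (0.0947, 0.495 and 0.155 without A, B and C), that in #20 without B or C (0.114 and 0.143), and that in #6 at 24 h without A or B (0.235 and 0.323). FOXA1, the pioneer factor that opens chromatin for the estrogen receptor, passed in 0 of 8 comparisons on either probe set, with changes of 204667_at from -0.19 to 0.20. The largest positive change, 0.20 in #10 at 4 h, had SFM arrays at 11.62, 11.10 and 11.63, of which B was low.

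GATA3, the master factor of luminal differentiation, fell slightly at 24 h in the clones labelled IRS-1. Clone #20 had 13.72, 13.82 and 13.77 with IGF-I, against 13.99, 13.98 and 13.99 in SFM. Clone #10 had 14.01, 14.05 and 13.97 with IGF-I, against 14.16, 14.14 and 14.16 in SFM. Neither pair of groups overlapped, and the falls were 0.22 (adjusted p = 1.99e-06) and 0.14 (adjusted p = 0.00236, and 0.143 without replicate C). The difference in GATA3 response between labelled isoforms at 24 h was -0.12 (adjusted p = 0.0841) and did not pass. XBP1, which directs the secretory arm of the unfolded protein response, rose at 4 h and fell at 24 h in clone #10. At 4 h it had 13.20, 13.40 and 13.24 with IGF-I, against 13.07, 12.93 and 13.05 in SFM. At 24 h it had 13.03, 13.05 and 13.03 with IGF-I, against 13.16, 13.20 and 13.29 in SFM. The groups did not overlap at either time. The changes were 0.26 (adjusted p = 0.000488) and -0.18 (adjusted p = 0.00932), the first missing the adjusted p without replicate B (0.301) and the second without C (0.226).

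The 3 estrogen-induced genes hardly answered to IGF-I. GREB1, a cofactor of the estrogen receptor, had 6.81, 6.88 and 6.50 in clone #10 at 24 h with IGF-I, against 7.18, 7.20 and 7.39 in SFM. The groups did not overlap and the fall was 0.53 ± 0.106 (SE, adjusted p = 0.000466), but without replicate C it was 0.35 with an adjusted p of 0.109, and the other 7 comparisons did not pass. TFF3 fell at 24 h in clone #6, with 10.18, 10.14 and 10.22 after IGF-I and 10.66, 10.64 and 10.47 in SFM, by 0.41 (adjusted p = 1.15e-05). It also fell by 0.20 in #20 (adjusted p = 0.0361), a call of the adjusted p that was lost without any 1 of the 3 letters (0.31, 0.153 and 0.153 without A, B and C). TFF1 passed in 0 of 8 comparisons and changed by -0.13 to 0.03. In clone #6, where it was brightest, it had 8.76, 8.85 and 8.97 with IGF-I and 8.84, 9.06 and 9.07 in SFM at 4 h, and the groups overlapped.

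The dimmer probe sets gave part of these falls. The 2 other probe sets of GATA3 fell at 24 h in both clones labelled IRS-1, by 0.30 and 0.22 in #10 (adjusted p = 0.00241 and 0.0237) and by 0.28 and 0.40 in #20 (adjusted p = 0.00512 and 1.72e-05), and 209603_at also fell by 0.24 in #6 (adjusted p = 0.0184). For PRLR, 4 dimmer probe sets fell at 4 h in #20, by 0.21 to 0.33, and 3 at 24 h in #10, by 0.20 to 0.25. The second MYB probe set, 215152_at, fell by 0.34 at 4 h in #6 (adjusted p = 0.0239). None of the 8 other ESR1, 2 other GREB1 or 1 other XBP1 probe sets passed the adjusted p after IGF-I in any clone, and the 2 dimmer GREB1 probe sets, at medians of 6.30 and 5.45, did not follow 205862_at between labels in SFM either (differences of 0.06 and -0.12).

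The responses of the clones labelled IRS-1 were then set against those of the clones labelled IRS-2. At 4 h and at 24 h, 0 of the 32 probe sets were called for a difference, where 0.0293% and 0.0586% of all probe sets were called. Without the fold threshold 1 probe set passed at 4 h, PGR 208305_at, and 2 at 24 h, both of PRLR, where 0.26% and 0.476% of all probe sets passed. For PGR 228554_at the difference at 24 h was 0.00, with a 95% interval from -0.21 to 0.21.

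The plot of every array by clone shows how far the clones stood apart in SFM. On PGR 228554_at clone #20 minus clone #6 was -2.72 on the log2 scale, where the largest change of a member after IGF-I was -0.85, of the same probe set in #6 at 24 h. SFM values were averaged over 4 h and 24 h, 6 arrays a clone. Labelled IRS-1 minus labelled IRS-2, 11 of the 32 probe sets were called, 6 higher (against 3.86% of all probe sets) and 5 lower (against 2.51%), where 6.37% of all probe sets were called in either direction. The arrays are the replicates in this test and 2 clones stand for each label, so the spread between clones is not part of its error. With the clone as a random block over the SFM arrays, 11 member probe sets were again called. That fit used 1 within-clone correlation (0.22) for all probe sets. With 2 clones a label it cannot measure the spread between clones for a single gene.

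**Figure D3:**
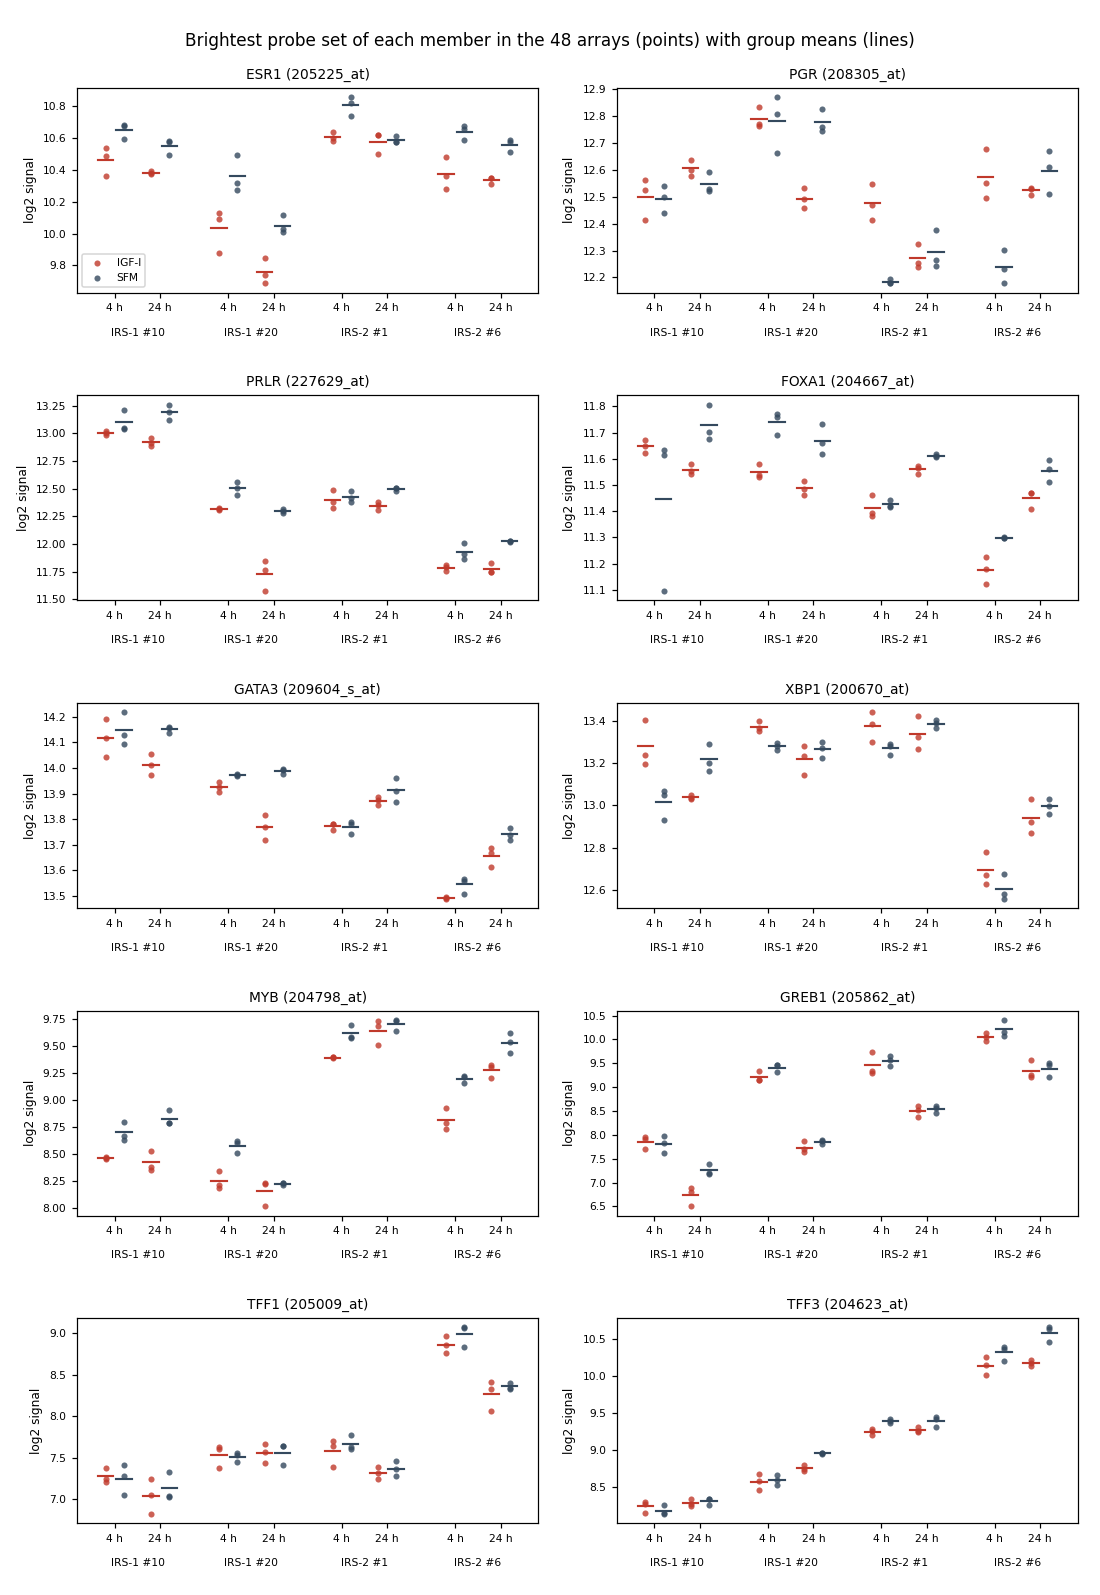
Log2 signal of the brightest probe set of each of the 10 members on all 48 arrays (points), with group means of 3 as lines, by clone and time, IGF-I (red) left of SFM (dark). Each panel has its own scale. MYB, GREB1 and TFF3 are lower in SFM in the clones labelled IRS-1 than in those labelled IRS-2, clone #6 holds the highest TFF1 and TFF3 values, and GREB1 is lower at 24 h than at 4 h in every clone.

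The estrogen-induced members and MYB were lower in SFM in the clones labelled IRS-1. TFF3 spanned 8.14 to 8.97 (median 8.44) in the 12 SFM arrays labelled IRS-1 and 9.32 to 10.66 (median 9.83) in the 12 labelled IRS-2. MYB spanned 8.21 to 8.90 (median 8.62) in the clones labelled IRS-1 and 9.16 to 9.74 (median 9.57) in those labelled IRS-2. Neither gene overlapped between labels. The differences were -1.41 ± 0.031 for TFF3 (adjusted p = 2.75e-37) and -0.93 ± 0.032 for MYB (adjusted p = 7.56e-29), and both were called in all 4 pairs of a clone labelled IRS-1 and a clone labelled IRS-2, from -0.62 to -2.21 for TFF3 and from -0.60 to -1.26 for MYB. GREB1 differed by -1.34 (adjusted p = 1.18e-26), with 7.18 to 9.46 in the clones labelled IRS-1 and 8.45 to 10.41 in those labelled IRS-2, ranges that overlap. TFF1 differed by -0.73 (adjusted p = 1.54e-17), but clone #20 at 7.54 ± 0.09 and clone #1 at 7.52 ± 0.18 (SD, n = 6 each) did not differ (difference 0.02, adjusted p = 0.845), and on the 24 h arrays alone the isoform difference was -0.51, under 1.5-fold.

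The order of the clones was therefore not the same for each of these genes. TFF3 averaged 10.46 in clone #6, 9.40 in #1, 8.78 in #20 and 8.25 in #10, and each neighbouring pair in that order differed by the adjusted p. GREB1 followed the same order, at 9.80, 9.04, 8.63 and 7.53, with the step between #20 and #1 (-0.41, adjusted p = 7.91e-06) under 1.5-fold. TFF1 was highest in clone #6, at 8.67 ± 0.36, and lowest in #10, at 7.19 ± 0.17, with 7.52 in #1 and 7.54 in #20 between them (#10 minus #20 was -0.35, adjusted p = 9.02e-05, and #10 minus #1 -0.33, adjusted p = 0.000116). MYB ran 9.66 in #1, 9.36 in #6, 8.76 in #10 and 8.40 in #20.

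PGR 228554_at showed the largest fold between labels among the members, while 208305_at ran the opposite way. 228554_at spanned 7.55 to 8.56 (median 8.21) in the clones labelled IRS-1 and 9.13 to 10.88 (median 10.05) in those labelled IRS-2. 208305_at spanned 12.44 to 12.87 in the clones labelled IRS-1 and 12.18 to 12.67 in those labelled IRS-2. The arrays of 228554_at did not overlap and those of 208305_at did, with differences of -1.85 ± 0.052 (3.60-fold lower, adjusted p = 1.69e-32) and 0.32 ± 0.024 (adjusted p = 1.77e-16). On its brightest probe set ESR1 differed between labels by -0.24 (adjusted p = 2.85e-10). Clone #20 was lowest there with 10.21 ± 0.19, beside 10.60 ± 0.07 in #10, 10.70 ± 0.13 in #1 and 10.60 ± 0.06 in #6 (SD, n = 6 each). Averaged over its 9 probe sets, ESR1 differed between labels by 0.03 (limma adjusted p = 0.149). The dimmer ESR1 probe sets ran both ways, with -0.13 on 215552_s_at (limma adjusted p = 0.00137) and 0.23 on 215551_at (limma adjusted p = 0.000288).

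The prolactin receptor and the luminal factors were higher in the clones labelled IRS-1. Of the 7 PRLR probe sets, 5 were called higher, by 0.68 to 0.95, and the 2 brightest were higher by 0.55 and 0.53, under 1.5-fold. The clones labelled IRS-1 did not share this equally. Averaged over the 7 probe sets, PRLR was higher in #10 by 1.03 than in #1 and by 1.30 than in #6. In #20 it was higher than in #1 and #6 by 0.19 and 0.46, both under 1.5-fold, and #10 minus #20 was 0.84. For 227629_at, clone #10 averaged 13.15, #1 12.46, #20 12.40 and #6 11.98, and #20 and #1 did not differ by the adjusted p (-0.06, adjusted p = 0.131). GATA3 was 0.32 higher (adjusted p = 5.13e-23), with 13.97 to 14.22 in the clones labelled IRS-1 and 13.51 to 13.96 in those labelled IRS-2, and did not overlap. FOXA1 was 0.17 higher on 204667_at (adjusted p = 5.8e-06), where the arrays overlapped, and 2.83-fold higher on the dimmer 237086_at (adjusted p = 1.06e-22), with 8.84 to 9.81 in the clones labelled IRS-1 and 7.52 to 8.09 in those labelled IRS-2. XBP1 was 0.13 higher (adjusted p = 5.18e-06), but its order of clones crossed the labels, with 13.33 in #1, 13.27 in #20, 13.12 in #10 and 12.80 in #6.

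**Figure D4:**
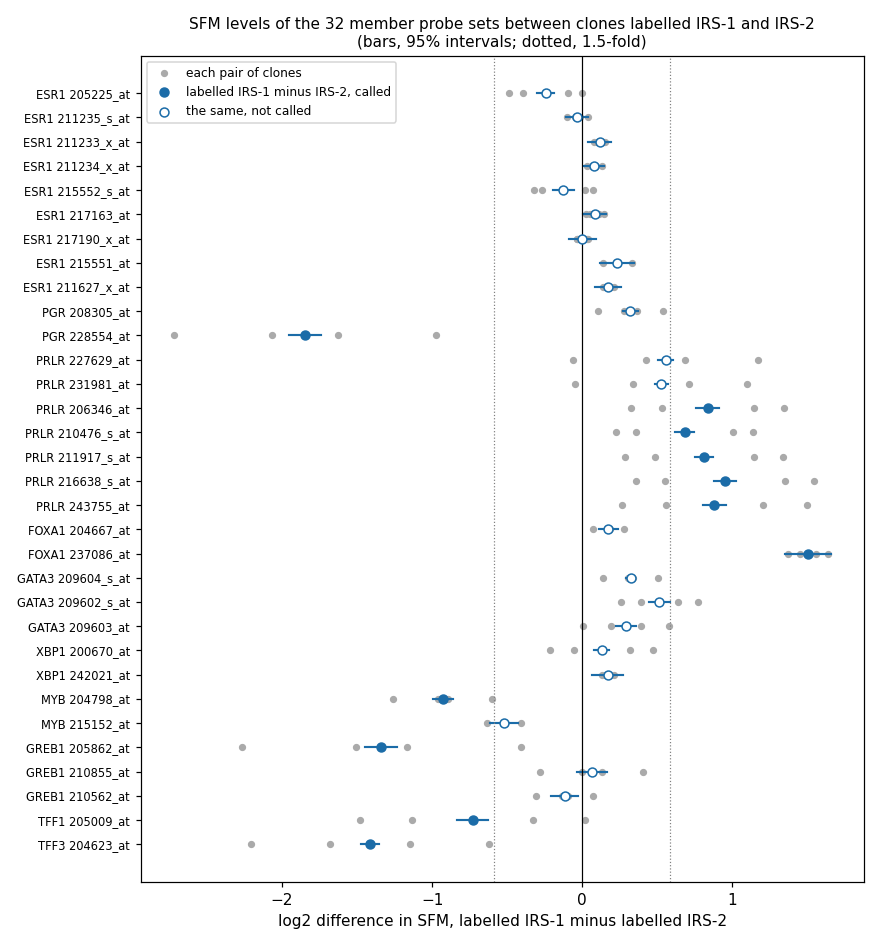
Log2 difference in SFM between the clones labelled IRS-1 and those labelled IRS-2 for each of the 32 member probe sets, with 95% intervals as bars, filled where called, and the 4 pairs of single clones as grey points. Dotted lines mark 1.5-fold. PGR 228554_at, MYB 204798_at, GREB1 205862_at, TFF1 and TFF3 lie to the left, and 5 PRLR probe sets and FOXA1 237086_at to the right.

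Clones with the same label differed too. Clone #10 minus clone #20, 9 of 32 probe sets were called in SFM (background 3.37% of all probe sets): all 7 of PRLR, higher by 0.75 to 0.99, PGR 228554_at, higher by 0.65, and GREB1, lower by 1.10. Clone #1 minus clone #6, 4 were called (background 1.07%), each lower: TFF1 by 1.15, PGR 228554_at by 1.09, TFF3 by 1.06 and GREB1 by 0.76. GREB1 and PGR 228554_at thus differed within both labels.

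GREB1 fell with time in SFM in every clone. In clone #20, GREB1 had 7.87, 7.81 and 7.89 in SFM at 24 h, against 9.46, 9.31 and 9.46 at 4 h. The difference, 24 h minus 4 h, was -1.56 in #20 (adjusted p = 3.46e-15), -1.01 in #1 (adjusted p = 1.97e-09), -0.83 in #6 (adjusted p = 1.26e-07) and, under 1.5-fold, -0.55 in #10 (adjusted p = 0.00265). Its 3 SFM arrays at 24 h lay below the 3 at 4 h in each clone. Besides GREB1, TFF1 fell by 0.63 in #6 (adjusted p = 1.17e-05), PGR 228554_at by 0.65 in #1 (adjusted p = 2.87e-05) and FOXA1 237086_at by 0.59 in #20 (adjusted p = 0.00412), each just past 1.5-fold, and without replicate C the TFF1 fall was 0.58 and that of FOXA1 0.43 (adjusted p = 0.129). In all, 0, 2, 2 and 2 of 32 probe sets were called in #10, #20, #1 and #6, against 0.022%, 0.699%, 0.229% and 0.482% of all probe sets. ESR1 fell with time in SFM by 0.31 in #20 (adjusted p = 9.56e-05) and 0.22 in #1 (adjusted p = 0.0147). TFF3 rose with time in SFM by 0.36 in #20 (adjusted p = 2.27e-05) and 0.27 in #6 (adjusted p = 0.00208), while TFF1 fell in #6. With each gene taken by its brightest probe set, 2, 1, 1 and 6 of 10 genes rose past the adjusted p in #10, #20, #1 and #6. In the same clones 1, 4, 2 and 2 fell. The share of all probe sets that passed the adjusted p without the fold threshold is not given for these comparisons. Whether the gene counts exceed it is therefore unknown. The median change of the 10 genes was 0.07, -0.04, 0.08 and 0.23, beside -0.00, 0.02, 0.01 and -0.02 over all probe sets.

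Over the 16 group means the members' own patterns correlated most for PRLR and GATA3 (r = 0.89), TFF1 and TFF3 (0.87) and GREB1 and TFF1 (0.79), and ran opposite for GATA3 and TFF1 (-0.88). These points share clones, so the values describe the ranking of clones and carry no test. The genes most like ESR1 were CDK5RAP2, TMEM187 and RAB11FIP4 (r = 0.96 each), those most like PGR 208305_at were EDN1 (0.91), VMP1 (0.82) and SRARP (0.82), and those most like TFF1 were PLAC8 (0.98), ABCG2 (0.96) and TMPRSS3 (0.96), out of 18807 compared.

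Other genes of the estrogen program were followed as a list. Of 43 measured estrogen-induced genes outside the members, 2 were called higher at 4 h in each clone, and 1, 2, 0 and 0 at 24 h in #10, #20, #1 and #6, with 0 lower throughout, beside the 0.0476% to 0.251% of all probe sets called in these comparisons. FHL2, a LIM-domain cofactor, rose at 4 h by 0.78, 0.85, 0.86 and 0.98 in #10, #20, #1 and #6. At 24 h the amino acid transporter gene SLC7A5 rose by 0.85 in #10 and 0.97 in #20 and, under 1.5-fold, by 0.52 in #1 and 0.29 in #6. STC2, a secreted glycoprotein gene, rose at 24 h by 1.22 in #20 and, under 1.5-fold, by 0.58 in #10. In SFM, 0 of the 43 were higher (3.86% of all probe sets) and 9 were lower (2.51%) in the clones labelled IRS-1, with PDZK1, a scaffold of membrane transporters, at -3.42, ELOVL2, a fatty acid elongase, at -3.17 and RAB31, a small GTPase, at -1.35. Within labels PDZK1 differed by -1.29 (#10 minus #20) and -2.08 (#1 minus #6), RAB31 by -1.47 (#10 minus #20) and ELOVL2 by 0.83 (#1 minus #6). For #20 minus #1, RAB31 differed by -0.56, under 1.5-fold. The list's median difference in SFM was -0.14, beside -0.01 over all probe sets. Clones of the same label also differed on this list. For #10 minus #20, 2 were higher and 9 lower with a median of -0.13, where 3.37% of all probe sets were called. For #1 minus #6, 3 were higher and 3 lower with a median of -0.09, where 1.07% of all probe sets were called.

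The luminal identity genes, 28 measured, had 0 calls after IGF-I, where at most 0.251% of all probe sets were called. In SFM 3 were higher (3.86% of all probe sets) in the clones labelled IRS-1, MLPH by 0.71, PIP by 0.70 and MUC1 by 0.67, and 1 was lower (2.51%). These 3 were called in both pairs with clone #6 and in neither pair with #1, and PIP differed by 0.00 between #20 and #1. Over the list, #10 minus #1 gave 0 higher and 3 lower (the share of all probe sets is not given for this pair). Of 17 basal, myoepithelial and mesenchymal markers, 0 were called after IGF-I, and 5 were lower (2.51% of all probe sets) in SFM in the clones labelled IRS-1, among them CD44 by 1.12, VIM by 0.88 and CDH3 by 0.83. In single pairs across labels 2 to 5 were lower and 0 higher (the share of all probe sets is not given for these pairs). Within labels 1 was lower in each pair, CD44 by 0.63 for #10 minus #20 (3.37% of all probe sets called), and 1 for #1 minus #6 (1.07%). The 5 markers differed between labels beside the estrogen-induced genes, and their part in those differences was not tested. Of 13 markers of other cells, 0 were called after IGF-I and 1 in SFM, COL1A1, at 0.66 (3.86% of all probe sets were higher). COL1A1 also differed within a label, by -0.74 for #10 minus #20. It differed by 0.33 for #10 minus #1 and 0.25 for #10 minus #6, both under 1.5-fold.

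Downstream of PGR, 18 genes known as progesterone receptor targets were measured. PDK4, a kinase that holds back pyruvate oxidation, fell at 4 h by 0.59 in #10 (adjusted p = 0.00121) and 0.65 in #1 (adjusted p = 0.000182), and with smaller falls of 0.50 in #20 and 0.54 in #6. DUSP1, a phosphatase of MAP kinases, rose at 4 h in #6 by 0.67 (adjusted p = 1.02e-08), and 0 were called at 24 h. In SFM SGK1 (-1.59) and PDK4 (-0.66) were lower and EDN1 (0.79) was higher in the clones labelled IRS-1, beside 2.51% lower and 3.86% higher of all probe sets. Only SGK1 was called in every pair of clones across labels. PDK4 differed by -0.24 for #10 minus #6 and -0.30 for #20 minus #6, under 1.5-fold, and by 0.77 within a label (#1 minus #6). EDN1 differed by 0.35 for #10 minus #6 and, within a label, by -0.58 for #1 minus #6, both under 1.5-fold. The 16 genes of the prolactin receptor pathway and the 25 measured partners and cofactors of the estrogen receptor had 0 calls after IGF-I in any clone and 0 between labels in SFM.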

How the data were processed

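The authors summarized probe sets by GC-RMA (GeneData Refiner, per the methods), and the submitters' notes give GCRMA no version. The deposited values are log2 signals of 54675 probe sets in 48 arrays. They are not relative to untreated arrays, and no raw intensities were used, so signal over background is unknown. The number of arrays, 3 a group, limits precision.

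After 62 control probe sets were left out, limma 3.58.1 under R 4.3.3 modelled the other 54613 by 16 group means, trended empirical Bayes variances and 32 residual degrees of freedom, without a filter on dim probe sets. Members and gene lists were chosen with earlier results of these data known. A gene was given by its brightest probe set where 1 is named. From each list up to 3 called genes with the largest change are named, and for ESR1, PGR and TFF1 the 3 most correlated genes with a mean log2 of at least 5. Alternatives were the loss of each replicate letter, the letter as a block, the removal of dim probe sets (kept when 3 or more arrays reached a log2 of 5), quantile normalization, median centring, untrended variances, no or a 2-fold threshold, the 6 arrays of a comparison, the methods' t-test, SFM times apart, clone as a random block and gene values averaged over probe sets. Letters did not pair the arrays: 3 of 24 same-letter pairs of arrays correlated above 0.1. The fit was tested on simulated data. Figures used matplotlib 3.10.9.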

Additional observations from a re-analysis of the deposited data

Results flagged for a closer look

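On 3 probe sets the response differed between the labelled isoforms by limma's test of the difference, IGF-I minus SFM in the clones labelled IRS-1 minus the same in those labelled IRS-2. PGR 208305_at differed by -0.31 at 4 h (adjusted p = 0.000126), while PGR 228554_at differed by 0.21 (adjusted p = 0.781) and the mean of both by -0.05 (adjusted p = 0.946). PRLR differed at 24 h by -0.22 on 227629_at (adjusted p = 0.0118) and -0.19 on 231981_at (adjusted p = 0.0154), and by -0.13 on the mean of its 7 probe sets (adjusted p = 0.306).

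The probe sets named next had responses that differed between times within a clone, 24 h minus 4 h, past the adjusted p in limma and more negative at 24 h. In clone #10 the differences were -0.37 for FOXA1 204667_at (adjusted p = 0.0127), -0.45 for GATA3 209602_s_at (adjusted p = 0.00379), -0.44 for XBP1 200670_at (adjusted p = 1.5e-05) and -0.57 for GREB1 205862_at (adjusted p = 0.0257). In clone #20 they were -0.29 for PGR 208305_at (adjusted p = 0.00512), -0.51 for PGR 228554_at (adjusted p = 0.0347), -0.39 for PRLR 227629_at (adjusted p = 0.000152) and -0.17 for GATA3 209604_s_at (adjusted p = 0.0145). For PGR 208305_at the difference was also -0.31 in #1 (adjusted p = 0.00636) and -0.41 in #6 (adjusted p = 0.000114). For PRLR in #20, 231981_at differed by -0.11, the other 5 probe sets by 0.02 to 0.23 and the mean of all 7 by 0.02 (adjusted p = 0.924). In clone #10 the SFM array B at 4 h was the lowest of 3 for FOXA1 204667_at (11.62, 11.10 and 11.63), GATA3 209602_s_at (12.95, 12.59 and 12.97) and XBP1 200670_at (13.07, 12.93 and 13.05).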

How the results depend on the processing

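The 20 called member values kept their direction in all 242 alternative values and stayed called in 218, and the 42 that passed the adjusted p alone kept their direction in all 537 and their side in 422. Direction could change only where a letter was left out, arrays were rescaled or SFM times were taken apart. The other settings keep the fold changes of the main fit. Without a fold threshold no call can be lost, and neither fold setting can alter the 42. The count of member probe sets called after IGF-I at 4 h (0) was 15 without a fold threshold and 0 to 1 with a letter left out. At 24 h the count of 3 was 27 without a fold threshold, 0 at 2-fold, 0 by the methods' t-test after Benjamini-Hochberg adjustment (3 unadjusted) and 3 to 4 with a letter left out. Between labels in SFM the 11 became 28 without a fold threshold and 4 at 2-fold (11 with each letter left out). The isoform differences in response were 0, or 3 without a fold threshold, and the SFM time differences 6, or 38 without a fold threshold, 2 at 2-fold and 4 to 7 with a letter left out. With the replicate letter as a block the counts were 0, 3, 11, 0 and 6, and no call changed. With gene values averaged over probe sets 6 genes were called between labels in SFM, against 4 by the brightest: PGR (-0.76), PRLR (0.75) and FOXA1 (0.84) gained a call and GREB1 (-0.46) lost it. So averaged, GREB1 also lost its calls within labels (-0.56 for #10 minus #20, -0.42 for #1 minus #6) and over time in SFM in #1 and #6 (-0.44 each). Scaling moved the median of all probe sets by at most 0.05. Dim probe sets are limited by unknown background.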
